A study of Mus musculus with 6 samples.

Results

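The genes of the skeletal muscle voltage sensor and of the membrane junction around it were followed in C2C12 cells before and after 5 days of differentiation. They were taken by symbol from the gene rows of the 6 count tables, and all 10 were listed among 54525 genes: *Cacna1s*, *Cacna1c*, *Cacna2d1*, *Cacnb1*, *Cacng1*, *Cacng6*, *Stac3*, *Jph1*, *Jph2* and *Bin1*. A filter on low counts left 9 of them among 16290 genes tested, and *Cacna1c* did not pass it. C2C12 is an established line of mouse myoblasts that divide in serum-rich medium and fuse into myotubes when serum is reduced. Total RNA from wild-type cells was sequenced from 3 cultures at day 0 (D0, myoblasts kept in medium with fetal bovine serum) and 3 cultures at day 5 (D5, after 5 days in medium with horse serum). The labels give genotype WT, no treatment and the cell type of myoblasts for all 6 samples, and the title alone separates D5 from D0. Nothing in the labels says that the cultures came from separate passages, so p-values measure only the spread between these samples, which may be technical.

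In skeletal muscle, an action potential runs from the cell surface into the transverse tubules, where the L-type calcium channel CaV1.1 acts as the voltage sensor. The channel is built from a pore-forming α1 subunit with α2δ, β and γ subunits, and it is mechanically coupled to the ryanodine receptor that releases calcium from the sarcoplasmic reticulum. STAC3 is an adaptor needed for this coupling, junctophilins tie the tubule to the reticulum at the triad, and BIN1 curves membrane into tubules.

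The libraries held between 36555048 and 40895840 counts on genes at D0 and between 25449759 and 25811300 at D5, so at D5 a single count weighed more. Values are given as counts, as CPM (counts divided by the library total after TMM scaling) for one gene across libraries, or as TPM (counts per exonic length, set to a common total) between genes. Means carry the SD over n = 3 libraries. All 6 skeletal muscle markers (*Myog*, *Mymk*, *Ckm*, *Acta1*, *Myh3*, *Des*) were higher at D5 and all 6 markers of dividing cells were lower. Their part in the results below was not tested, and in these bulk samples a change in the number of fused cells and a change in RNA per cell cannot be told apart.

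All 9 tested genes were called higher at D5 at an adjusted p under 0.05 (edgeR's quasi-likelihood test). Over all genes tested, 42.2% were called higher and 40.8% lower, so that a call alone was common. *Cacng6* was tested only because of its D5 libraries and could only come out higher, so it is left out of the counts that follow. Of the other 8 genes, 8 were called higher and 0 lower. Their 3 D5 libraries lay above the 3 D0 libraries in 8 of 8, as for 42.2% of all genes tested, and below them in 0, as for 41.1%. A call with a log2 fold change above 1 was seen in 8 of 8, against 19.3% of all genes tested. That count was 7 with scaling to total counts, without *Cacna2d1*, and 6 with unscaled counts, without *Cacna2d1* and *Jph2*. With scaling to ERCC spike-in RNAs it was 5, without *Cacna2d1*, *Jph2* and *Bin1*. The 19.3% holds for TMM scaling only. Calls of any size toward higher also changed in share over all genes. They were 6281 of 16290 with total counts, 20.6% with unscaled counts and 11.1% with ERCC scaling. The median log2 fold change of the 8 was 2.49 against 0.0022 over all genes. The rises spanned a wide range, from 2.12-fold for *Cacna2d1* to 1000.2-fold for *Cacna1s*.

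Promoter windows from RefSeq (GRCm38.p6, 250 bases before to 50 after an annotated start) were matched for 6 of the 10 genes, in 10 windows. They were searched on both strands for the E-box CANNTG, its palindromic form CAGCTG, the further form that reads CAGGTG on one strand and thus CACCTG on the opposite strand, the MEF2 motif and the CArG box. E-boxes are bound by the myogenic regulatory factors, while MEF2 and SRF bind the other motifs named. The 4 windows below are shown because they belong to the gene with the largest measured fold (*Cacna1s*), the β subunit (*Cacnb1*), a gene unseen at D0 (*Cacng6*) and the more abundant junctophilin (*Jph2*), with E-boxes and MEF2-type matches in capitals, 5′ to 3′ on the strand of the gene.
Cacna1s, chr1:136052561-136052860, plus strand: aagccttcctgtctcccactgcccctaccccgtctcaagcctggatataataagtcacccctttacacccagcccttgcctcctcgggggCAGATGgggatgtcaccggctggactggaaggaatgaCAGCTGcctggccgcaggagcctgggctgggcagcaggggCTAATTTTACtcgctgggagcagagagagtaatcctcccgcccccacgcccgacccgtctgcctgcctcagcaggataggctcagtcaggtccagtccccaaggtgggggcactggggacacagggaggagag
Cacnb1, chr11:98018323-98018622, minus strand: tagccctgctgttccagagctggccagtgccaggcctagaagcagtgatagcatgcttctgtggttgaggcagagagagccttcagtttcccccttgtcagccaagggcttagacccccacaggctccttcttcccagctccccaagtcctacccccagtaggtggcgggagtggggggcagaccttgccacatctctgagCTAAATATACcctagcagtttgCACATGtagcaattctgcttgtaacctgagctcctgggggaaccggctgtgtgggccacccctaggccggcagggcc
Cacng6, chr7:3424412-3424711, plus strand: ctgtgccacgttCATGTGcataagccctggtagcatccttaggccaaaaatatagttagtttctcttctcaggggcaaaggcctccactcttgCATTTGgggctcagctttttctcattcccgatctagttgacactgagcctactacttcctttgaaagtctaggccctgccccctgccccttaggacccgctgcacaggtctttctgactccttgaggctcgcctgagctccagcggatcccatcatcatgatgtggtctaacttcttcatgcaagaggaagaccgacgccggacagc
Jph2, chr2:163397924-163398223, minus strand: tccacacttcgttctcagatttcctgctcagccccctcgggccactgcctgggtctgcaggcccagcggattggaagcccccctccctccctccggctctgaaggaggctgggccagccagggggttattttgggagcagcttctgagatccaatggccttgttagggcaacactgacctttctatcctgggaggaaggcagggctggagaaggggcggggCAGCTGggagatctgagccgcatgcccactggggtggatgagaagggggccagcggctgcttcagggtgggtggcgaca

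An E-box stood in 8 of the 10 windows, and 72.3% of all 32851 windows of this length hold one. The CAGCTG form was in 4 windows against 16.3% of all windows. It began 123 bases before the *Cacna1s* start and 29 bases before the *Jph2* start shown, and the second *Jph2* window overlaps the first and holds the same match. The remaining CAGCTG lay 28 bases after a start of *Cacna1c*, a gene that was at most at 10 counts in any library. CAGGTG was found in 1 window, also of *Cacna1c*, against 20.2% of all windows. The MEF2 motif in full was in none of the 10 windows, against 0.557% of all windows. With 1 end letter left free it was in 2 windows, CTAATTTTAC beginning 83 bases before the *Cacna1s* start and CTAAATATAC beginning 49 bases before the *Cacnb1* start, and 3.59% of all windows hold such a match. No CArG box was found in them, against 1.63% of all windows. The windows of *Cacna2d1* and the second window of *Cacnb1* held none of these motifs. These matches describe letters in short windows, and nothing about binding was measured.

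*Cacna1s* (chromosome 1, 136052750 to 136119822, plus strand, GRCm38) encodes the CaV1.1 pore and voltage sensor. The myoblast libraries counted 14, 14 and 13 reads of it, and the myotube libraries 8332, 9005 and 8500. The groups lay far apart, and the D0 values were small but above 3 counts in every library. Its mean was 0.343 ± 0.0269 CPM in myoblasts and 346 ± 17.3 CPM in myotubes (SD over 3 libraries). The log2 fold change was 9.97 (SE 0.077, edgeR's quasi-likelihood test, adjusted p = 1.3e-38), above that of 99.7% of genes tested. On the opposite strand, *Gm37759* overlaps 19.98% of the exonic length of *Cacna1s*. The strand setting of the counting is not given in the sources used here, so reads of the pair may not be told apart. *Gm37759* itself was at 7 counts or fewer in every library.

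*Cacna1c* (chromosome 6, 118587240 to 119196418, minus strand) encodes CaV1.2, the L-type pore of heart and smooth muscle. Its counts were 10, 5 and 2 at D0 and 3, 2 and 1 at D5. These values overlap between the groups and are close to the detection limit of 3 counts used here. With 3 counts or fewer in every D5 library, *Cacna1c* was not detected at D5 by that limit. Summed over libraries, 17 counts at D0 and 6 at D5 gave a D5 to D0 ratio of 0.566 after scaling, with an exact 95% interval of 0.183 to 1.51 that covers counting error only. Without D0 replicate 1 the log2 ratio was -0.081, against -0.82 with all libraries. A change of *Cacna1c* was not detectable at this depth. Per length, *Cacna1s* made up 81.9%, 90.1% and 95.5% of the sum of both at D0 and at least 99.9889% in each D5 library. The D0 shares rested on few counts of either gene, and the D5 shares on a *Cacna1c* that was not detected.

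*Cacna2d1* (chromosome 5, 15934691 to 16374511, plus strand), the extracellular α2δ-1 subunit that also takes part in other calcium channels, was already abundant in myoblasts. It stood at 167, 164 and 165 CPM at D0 and at 357, 353 and 342 CPM at D5. The groups were clearly apart, though its rise was the smallest of the 9 tested. The log2 fold change was 1.08 (SE 0.032, edgeR's quasi-likelihood test, adjusted p = 1.5e-23), or 2.12-fold. When libraries were scaled to the ERCC spike-in RNAs instead, it was 0.53 with an adjusted p of 0.444 from the same edgeR test.

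*Cacnb1* (chromosome 11, 98001508 to 98023034, minus strand) encodes the intracellular β1 subunit, which brings the pore to the membrane. Its libraries were at 18.3, 17.9 and 18.01 CPM at D0 and at 316, 324 and 325 CPM at D5. Replicates were close together and the groups did not overlap. The rise was 17.8-fold (log2 fold change 4.15, SE 0.039, edgeR's quasi-likelihood test, adjusted p = 1.9e-36).

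The γ subunits of the list differed in level. *Cacng1* (chromosome 11, 107703218 to 107716522, minus strand) encodes γ1, the γ subunit of the skeletal channel, and was at 31.8, 33.0 and 31.1 CPM at D0 and 243, 261 and 246 CPM at D5. Every D5 library exceeded every D0 library, by 7.82-fold in the fit (log2 fold change 2.97, SE 0.039, edgeR's quasi-likelihood test, adjusted p = 9.8e-33). *Cacng6* (chromosome 7, 3424195 to 3435667, plus strand), which encodes γ6, a close relative of γ1, had 0 counts in all 3 D0 libraries and 150, 145 and 139 counts at D5. It was thus seen at D5 alone, and it passed the filter only through those libraries. Against a floor of 3 counts per library it was at least 77.2-fold higher at D5. At D5 it was a minor partner, with 1.45 ± 0.0682% (SD, n = 3) of the summed TPM of *Cacng1* and *Cacng6*.

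*Stac3* (chromosome 10, 127501686 to 127508823, plus strand), the adaptor of the voltage sensor, had 7.18, 6.16 and 6.25 CPM at D0 and 99.5, 105 and 97.4 CPM at D5. The D0 libraries were uniformly low and the D5 libraries uniformly high. The log2 fold change was 3.95 (SE 0.055, edgeR's quasi-likelihood test, adjusted p = 4.6e-32), or 15.4-fold.

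**Figure D1:**
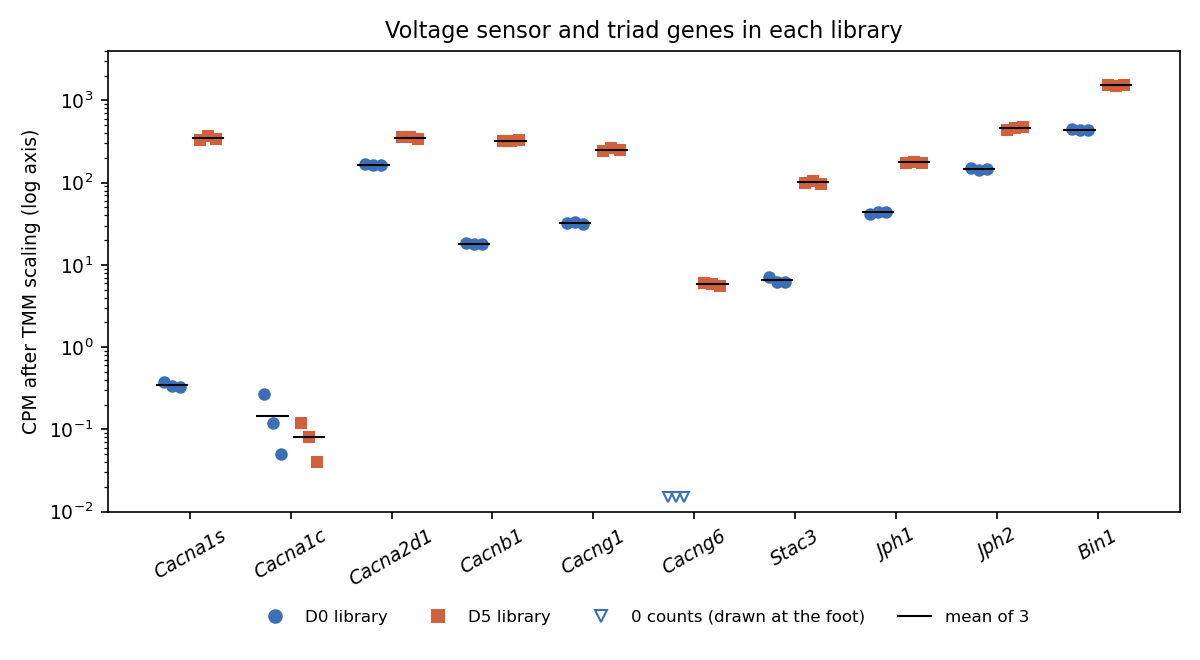
Level of each of the 10 genes in each library, in CPM, with 3 D0 and 3 D5 libraries as points and the group mean as a line on a log axis, and 0 counts drawn at the foot. For the 8 tested genes detected in both groups the D5 points lie above the D0 points, as for 42.2% of all genes tested. *Bin1* reaches 1519 CPM at D5. *Cacng6*, tested only because of its D5 libraries, is at 0 counts at D0, and *Cacna1c* lies near the bottom in both groups.

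Both junctophilins of the list were present in myoblasts and rose. *Jph1* (chromosome 1, 16964560 to 17097889, minus strand), the junctophilin known from skeletal muscle, was at 41.9, 43.8 and 44.2 CPM at D0 and at 174, 179 and 174 CPM at D5. Its groups were apart, with a 4.06-fold rise (log2 fold change 2.02, SE 0.036, edgeR's quasi-likelihood test, adjusted p = 2.9e-29). *Jph2* (chromosome 2, 163336242 to 163397993, minus strand), found in heart as well as skeletal muscle, had 152, 143 and 147 CPM at D0 and 437, 458 and 479 CPM at D5. The D5 libraries of *Jph2* were all higher than those at D0, by 3.11-fold (log2 fold change 1.64, SE 0.036, edgeR's quasi-likelihood test, adjusted p = 5.2e-27). With ERCC scaling the log2 fold change of *Jph2* was 1.06 and did not pass the edgeR test (adjusted p = 0.0975).

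Per length, *Jph1* supplied 19.1%, 20.6% and 20.4% of the sum of both junctophilins at D0 and 25.4%, 24.9% and 23.6% at D5. The groups did not overlap, and *Jph2* kept the larger part in every library. The difference was 4.62 percentage points, with an exact two-sided permutation p of 0.1, which is the smallest p that 3 libraries against 3 can give.

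*Bin1* (chromosome 18, 32377230 to 32435737, plus strand), the membrane-bending amphiphysin of tubules that also has forms in other tissues, was the most abundant of the 10 genes at both times. It had 444, 434 and 431 CPM at D0 and 1515, 1502 and 1540 CPM at D5. The groups were apart and the replicates close. The rise was 3.48-fold (log2 fold change 1.80, SE 0.032, edgeR's quasi-likelihood test, adjusted p = 2.8e-29), and with ERCC scaling the log2 fold change was 1.23 (edgeR, adjusted p = 0.0511). Gene counts join its splice forms, so the muscle form was not separated.

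**Figure D2:**
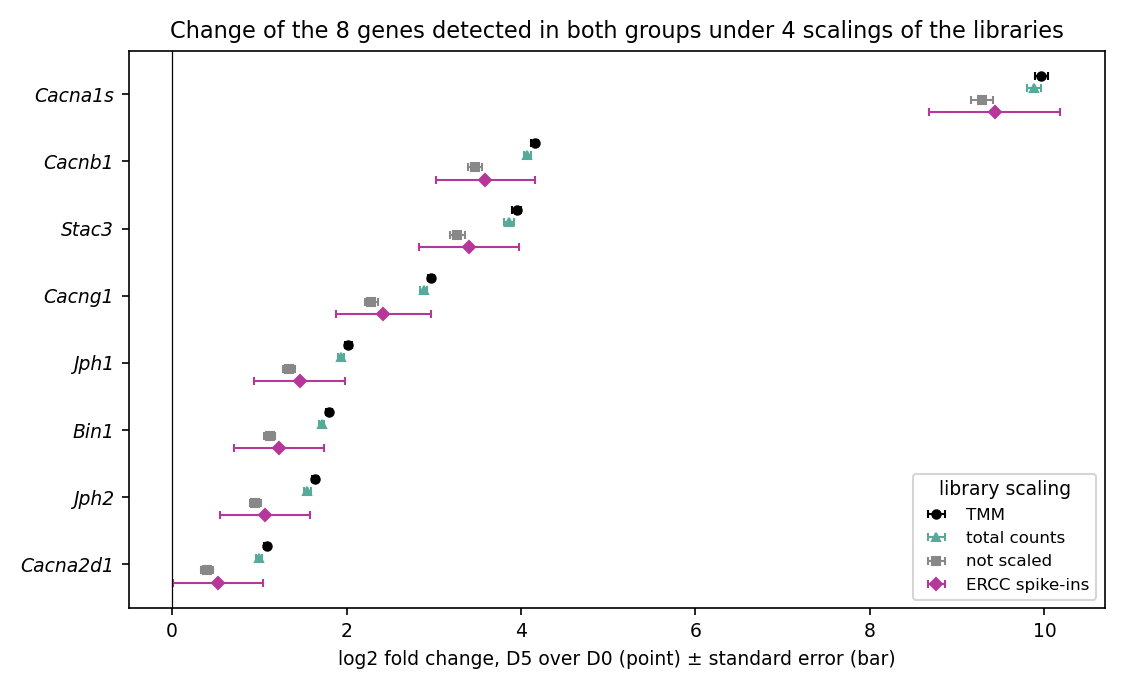
Log2 fold change, D5 over D0, of the 8 tested genes that were detected in both groups, under 4 scalings of the libraries, with bars for the SE. With TMM scaling the values run from 1.08 for *Cacna2d1* to 9.97 for *Cacna1s*, and every value lies above 0.

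The order of the genes per length changed between the times. At D0, *Bin1* (367 ± 1.04 TPM, SD, n = 3) was followed by *Jph2* (119.8 ± 2.42), *Cacng1* (88.5 ± 2.66), *Cacna2d1* (46.1 ± 0.359), *Jph1* (29.99 ± 1.31), *Cacnb1* (13.8 ± 0.135), *Stac3* (8.88 ± 0.637) and *Cacna1s* (0.181 ± 0.0114). At D5, *Bin1* (1145 ± 28.1 TPM, SD, n = 3) was followed by *Cacng1* (621 ± 15.2), *Jph2* (334 ± 11.7), *Cacnb1* (220.4 ± 1.79), *Cacna1s* (164 ± 5.48), *Stac3* (123 ± 4.12), *Jph1* (109 ± 1.59), *Cacna2d1* (87.7 ± 3.20) and *Cacng6* (9.12 ± 0.436). *Cacna1c* was next to last at D0 (0.0235 ± 0.0177 TPM) and last at D5 (0.0118 ± 0.00601). *Cacna2d1* thus moved from the fourth place to the eighth, and *Cacna1s* from the eighth to the fifth. Neighbours in either order had ranges that did not overlap. The places of close neighbours depended on the length used. With the length of the longest transcript, *Stac3* and *Cacna1s* overlapped at D5 (139 and 137 TPM) and *Cacna2d1* (117 TPM) stood above *Jph1* (90.7 TPM).

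Relative to the pore transcript, the other parts of the complex were in large excess in myoblasts and much closer to its level in myotubes. At D0 each ratio divides by *Cacna1s* at 14, 14 and 13 counts, so the size of the D0 ratios is uncertain. The rise of this shared divisor lowers all of the ratios together. *Cacng1* was at 447, 520 and 505 times the TPM of *Cacna1s* at D0 and at 3.85, 3.75 and 3.78 times at D5. For *Cacna2d1* the mean ratio went from 255 ± 17.0 to 0.536 ± 0.0293 (SD, n = 3 each), for *Cacnb1* from 76.4 ± 5.14 to 1.35 ± 0.0549, and for *Stac3* from 49.0 ± 1.21 to 0.749 ± 0.0211. At D5, *Cacna2d1* was thus below *Cacna1s*, and *Cacnb1* and *Cacng1* above it. *Stac3* was below *Cacna1s* with exonic length and overlapped it with the length of the longest transcript. The size of the ratios also depended on length, as the D5 minus D0 difference for *Cacna2d1* was -255 with exonic length and -406 with the longest transcript, and that for *Cacng1* was -487 and, without any length correction, -92.8. In each of these 4 ratios the groups did not overlap. The exact two-sided permutation p was 0.1, the smallest possible for 3 against 3, and stayed 0.1 after adjustment over 7 shares and ratios. These 7 were not separate results, as 4 share *Cacna1s* as divisor and the *Cacng6* share was 0 in every D0 library.

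**Figure D3:**
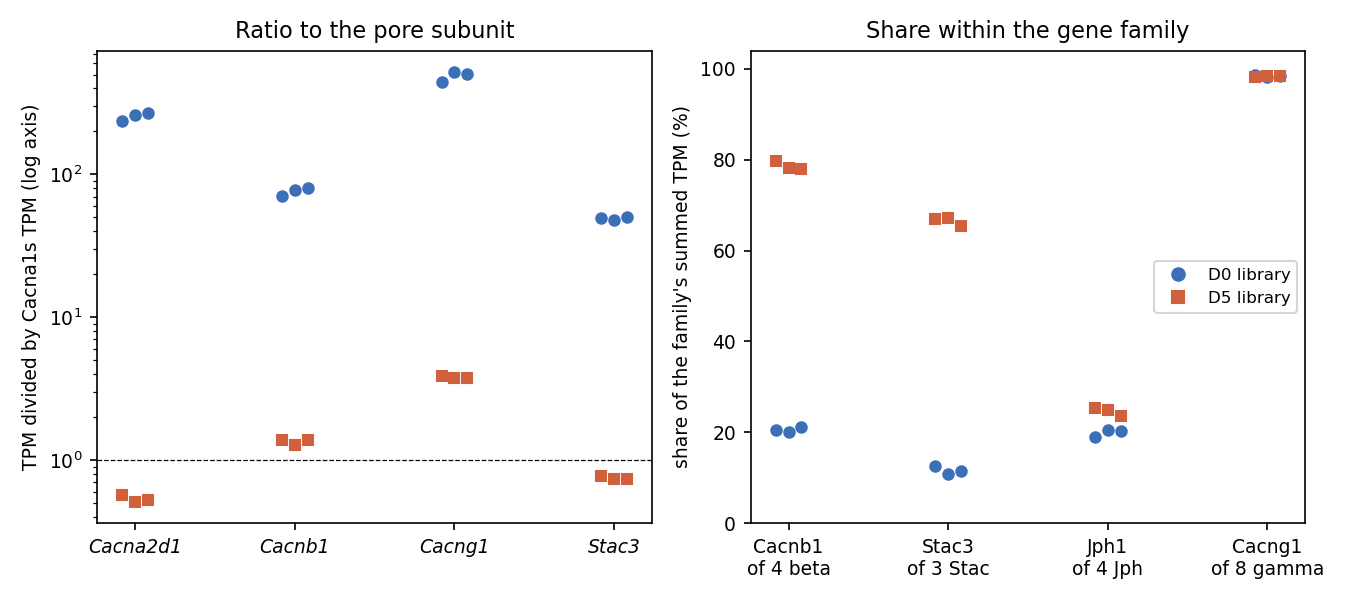
Ratios of subunit TPM to *Cacna1s* TPM on a log axis, with a dashed line at equal level, and the share of *Cacnb1*, *Stac3*, *Jph1* and *Cacng1* in the summed TPM of their gene family in percent, each point a library (3 D0 and 3 D5). The *Cacng1* ratio lies between 447 and 520 at D0 and between 3.75 and 3.85 at D5, and the *Cacnb1* share has a mean of 20.6% at D0 and 78.6% at D5.

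The paralogs of the channel and junction genes were mostly low. Of 24 paralogs, 7 passed the filter, 3 were higher at D5 (*Cacna1a* by 1.20, *Cacnb2* by 3.50 and *Cacnb3* by 0.29 on the log2 scale), none was lower and 4 had no call (edgeR's quasi-likelihood test). Their median log2 fold change was 0.19. The share called higher was near that over all genes tested (42.2%), while none was lower, against 40.8% of all genes tested. A further 12 were at or under 3 counts in every library, among them all 3 T-type pores (*Cacna1g*, *Cacna1h*, *Cacna1i*) and *Jph3*, the junctophilin known from brain. *Cacng4*, the neighbour of *Cacng1* on chromosome 11, did not pass the filter and had 50 counts over the D0 libraries and 5 over the D5 libraries, a ratio of 0.160 (exact 95% interval 0.0499 to 0.400, counting error only). *Cacna1d* had 1 count over the D0 libraries and 26 over the D5 libraries, and *Cacna2d2* had 3 and 21, so both were not detected at D0 and low at D5. *Cacnb4* had 5 and 32 counts, a ratio of 10.3 (exact 95% interval 3.97 to 33.8).

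Within families, set side by side after the values had been seen and without a test, the list members took a larger share at D5 of the β and Stac families. *Cacnb1* went from 20.6 ± 0.577% to 78.6 ± 0.939% of the summed TPM of the β subunits (SD, n = 3 each), while *Cacnb3* went from 79.1% to 20.7% with a TPM of 53.0 at D0 and 57.9 at D5. *Stac3* went from 11.6 ± 0.811% to 66.5 ± 1.07% of the Stac family, and *Stac2*, at 61.1 CPM at D0 and 62.1 CPM at D5, went from 88.0% to 33.3%. Of these partners *Cacnb3* was called higher, by 0.29 on the log2 scale, and *Stac2* had no call at 0.024 (edgeR, adjusted p = 0.578). *Cacna1s* went from 16.5% to 99.3% of the α1 pores, whose sum rose from 1.10 to 165 TPM, and at D0 the larger share, 52.7%, was that of *Cacna1b*, an N-type pore known from neurons. *Cacna2d1* held 99.8% or more of its family in every library, and *Cacng1* from 98.3% to 98.8%.

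Most of the tested partners across the junction were also called higher. Of 14 genes of the junctional sarcoplasmic reticulum, 13 were tested, 12 were higher at D5 and 1 was lower (edgeR's quasi-likelihood test). *Casq1* passed the filter only through D5, and of the other 12 genes 11 were higher and 1 lower, beside 42.2% and 40.8% of all genes, with a median log2 fold change of 5.54. With ERCC scaling 9 of the 12 were higher, beside 11.1% of all genes. *Ryr1*, the release channel coupled to CaV1.1, went from 9.89 to 1662 CPM (log2 fold change 7.39). Per length, *Ryr1* was at 1.57 TPM against 0.181 for *Cacna1s* at D0 and at 236 against 164 TPM at D5. *Casq1*, a calcium-binding protein of the reticulum, had the largest log2 fold change at 10.33, and *Fkbp1a*, which binds ryanodine receptors and is widely expressed, fell by 1.00 on the log2 scale. *Ryr2*, the receptor of heart, was at 4 counts or fewer in every library.

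Of 10 genes of the tubule membrane, 9 were tested, 6 were higher and 3 lower. *Cav3* and *Tcap* passed the filter only through D5, and of the other 7 genes 4 were higher and 3 lower, beside 42.2% and 40.8% of all genes, with a median log2 fold change of 1.44. With ERCC scaling 3 of the 7 were higher and 0 lower, beside 11.1% and 23% of all genes. *Cav3*, the muscle caveolin, had 0, 1 and 0 counts at D0 and 615, 668 and 633 at D5. *Trim72*, a membrane repair protein, rose by 10.09 on the log2 scale. The 3 lower genes moved little, namely *Dnm2* (-0.083), *Speg* (-0.22) and *Myof* (-0.18). *Amph*, the relative of *Bin1* known from neurons, had 0 counts in all 6 libraries. Of 10 regulators of the channel, 9 were tested, 4 were higher, 3 lower and 2 had no call, near the shares over all genes, with a median log2 fold change of 0.037. With ERCC scaling 1 was higher and 1 lower. With unscaled counts 4 were higher and 5 lower, beside 20.6% and 67.2% of all genes. Their extremes were *Rrad* at 3.86, a small GTPase that inhibits L-type channels, and *Calm2*, a calmodulin gene, at -1.05.

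**Figure D4:**
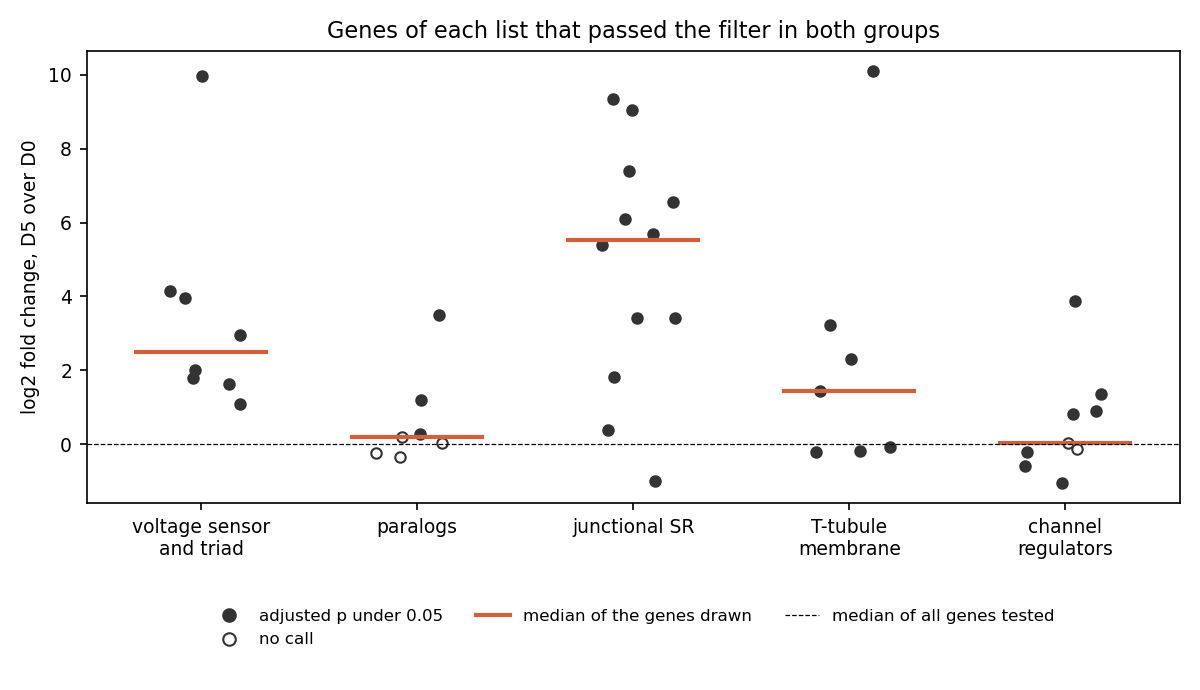
Log2 fold change, D5 over D0, of the genes of each list that passed the filter in both groups, with filled points for an adjusted p under 0.05, open points for no call and a bar at the median. *Cacng6*, *Casq1*, *Cav3* and *Tcap* are left out. The bar is at 2.49 for the voltage sensor and triad genes, 0.19 for their paralogs and 5.54 for the junctional reticulum.

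Markers of other cells that use these genes were also read. Of 8 cardiomyocyte markers the summed TPM was 31.4 to 32.6 at D0 and 32.0 to 35.4 at D5. *Nppa* and *Myl7* were at 3 counts or fewer in every library. Of the 3 genes that passed the filter in both groups *Tnni3* was higher at D5, *Nkx2-5* lower and *Gata4* had no call. The sum joined opposite moves. *Myh6*, which passed the filter only through D5, had 0, 1 and 0 counts at D0. At D5 it had 584, 719 and 690 counts (mean 12.3 TPM). *Nppb*, which passed only through D0, fell from 6.67 to 0.689 TPM. Neuron markers (6 genes) summed to 445 to 469 TPM at D0 and 24.4 to 27.4 TPM at D5, with *Rbfox3* and *Snap25* at 3 counts or fewer throughout. Smooth muscle markers (6 genes) summed to 4756 to 4892 TPM at D0 and 1499 to 1619 TPM at D5, and the defining *Myh11* was at 8 counts or fewer. At D0 the sums were carried mostly by *Tubb3* (407 TPM) and *Acta2* (4499 TPM). At D5 *Acta2* was at 1428 TPM, while *Tubb3* was at 7.004 TPM and *Stmn2* at 18.4 TPM. Single markers went the other way, with *Stmn2* called higher by 3.22 and *Mylk* by 5.27 on the log2 scale, and *Smtn* and *Lmod1* had no call. The part of these markers in the results was not tested.

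By the distance between centred log2 CPM profiles over the 6 libraries, the genes nearest to *Cacna1s* were *Myh1* (0.128), *Trim72* (0.204), *Slc6a2* (0.298), *Casq1* (0.431) and *Inmt* (0.542). *Slc6a2* and *Inmt* had 0 CPM at D0, so their distance depends on the prior count of 2 used in the log. The nearest to *Jph2* were *Mknk2* (0.0603), *Ece1* (0.0679), *Dlgap4* (0.0782), *Nfix* (0.0804) and *Cryab* (0.0934). With 2 groups the distance mostly reads the size of the fold and describes nothing beyond it.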

How the data were processed

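Total RNA of C2C12 cells was sequenced on an Illumina instrument by the study. The deposited values are raw counts per gene that the authors obtained with featureCounts, without normalization. Reads were aligned to GRCm38 (mm10); the labels name Tophat2 and NGS-QC-Toolkit, whereas the methods of the paper name HISAT2 and FastQC. The strand setting and how multi-mapping reads were handled are not given in the sources used here. A nameless row holding the column total and 92 ERCC spike-in rows, from 0.720% to 2.09% of counts, were left out. Counts were tested with edgeR 4.0.16 (R 4.3.3; TMM factors, filterByExpr, quasi-likelihood test, Benjamini-Hochberg over 16290 genes, threshold 0.05). The SE of a log2 fold change comes from this fit. TPM used exonic lengths of GENCODE vM21, to which 99.932% of 54525 gene rows matched by identifier. Genes with 3 counts or fewer in all libraries of a group were treated as not detected there. Named genes were the 10 genes, the extremes, most abundant or undetected genes of fixed lists, and the 5 nearest profiles to *Cacna1s* and *Jph2*; a few others, such as *Cacng4*, *Stac2*, *Cacnb3* and *Ryr1*, were named after their values were seen. The genes and lists were chosen with earlier results of these data known. Alternatives were DESeq2 1.42.0, other scalings and filters, a replicate block and leaving out each library. Scripts were tested on simulated data. Replicate libraries differed by more than counting noise, with chi-square values per degree of freedom of 2.28 to 3.71.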

Additional observations from a re-analysis of the deposited data

How the results depend on the processing

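Leaving aside *Cacng6*, the count of 8 genes called higher and 0 lower held under DESeq2, upper-quartile and total-count scaling, counts without scaling, both other filters and every left-out library. Over all genes, 40.3% were higher and 38.1% lower with DESeq2, and 20.6% and 67.2% with unscaled counts. Higher calls were 6753 of 16290 with upper-quartile factors, 6281 of 16290 with total counts and 5742 of 13713 with a minimum of 10 counts. With scaling to ERCC spike-ins 5 of the 8 were called higher, beside 11.1% of all genes. *Cacna2d1*, *Jph2* and *Bin1* were lost, and each SE was 0.51 or above. A minimum of 10 counts in every library removed *Cacng6*. ERCC scaling called 5560 genes in all against 13510, and the cause was not tested. The spike-in totals were 314428, 184602 and 546930 counts in the D5 libraries, and 284648 to 341518 at D0. ERCC scaling moved the median log2 fold change of all genes to -0.58, and leaving counts unscaled moved it to -0.68. Higher calls were 50.8% of all calls, 32.6% with ERCC and 23.4% unscaled. Among the 7 paralogs tested, 4 were called lower with unscaled counts, beside 67.2% of all genes. With ERCC scaling 1 of the 7 was called higher, beside 11.1% of all genes. Without the filter, 6 of the 24 listed paralogs were called higher and 1 lower, while *Cacna1f*, *Cacng2* and *Cacng3*, at 0 counts in every library, could not enter. In that fit 7637 of 29266 genes were called higher, which was 50% of all calls. Of the 24 listed paralogs, 1 was also called lower without D0 replicate 1 or without any 1 of the D5 libraries. Those called higher were 4 without any 1 of the D0 libraries and without D5 replicate 1 or 3. They were 3 without D5 replicate 2, where 40.4% of all genes tested were called higher and 38.8% lower. Of the 12 junctional reticulum genes that passed in both groups, 2 were lower with unscaled counts, beside the same 67.2%. Of the 7 tubule genes that passed in both groups, 2 were lower with DESeq2, without D0 replicate 3 and without D5 replicate 2. In these 3 fits *Dnm2* had no call, and 38.1%, 40.2% and 38.8% of all genes were lower. Leaving out 1 library gave 13236 to 13599 calls over all genes, among 16257 to 17169 genes tested. Of these calls 6723 to 6936 were toward higher. In each of these fits 8 of the 8 genes were called higher, *Cacng6* left aside. Without 1 library, the D5 minus D0 difference ran from 4.14 to 5.13 percentage points for the *Jph1* share, 7.23 to 14.0 for the *Cacna1s* share and 1.41 to 1.47 for the *Cacng6* share. The ratios to *Cacna1s* changed by -264 to -248 for *Cacna2d1*, -77.9 to -72.9 for *Cacnb1*, -509 to -472 for *Cacng1* and -49.0 to -47.8 for *Stac3*, and for *Stac3* by -65.5 with longest-transcript length and -18.7 without length correction. Same-numbered libraries deviated together only weakly (r of 0.033, 0.064 and 0.028), so the numbers were not taken as pairs, although every library correlated best with its own number. A fit with a replicate block called 13558 of 16290 genes, 6894 of them higher, and changed no call among the 8 genes. Depth limits *Cacna1c* and the D0 level of *Cacna1s* and *Cacng6*.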
